A study of Mus musculus with 79 samples.

Results

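The 42 genes described here run the passage of a cell through G1 and into S phase. They encode the G1 cyclins and their kinases, 2 E2F transcription factors, and the proteins that license and fire replication origins. The rest encode fork and polymerase proteins, enzymes that supply deoxynucleotides, chromatin factors of the fork and a histone mRNA binding protein. The 42 genes were taken by name, with earlier results of these data known. All 42 were found in the deposited table of 20465 gene symbols, which spells them in upper case. The G1 genes were CCND2, CCND3, CDK4, CDK6, CDK2, CCNE1 and CCNE2, and the E2F genes E2F1 and E2F2. Licensing genes were ORC1, ORC6, CDC6, CDT1 and MCM2 to MCM7, and firing genes CDC7, CDC45, GINS1, GINS2 and MCM10. Fork genes were PCNA, RFC2, RFC3, RFC4, POLA1, POLD1, POLE, PRIM1, FEN1 and LIG1. Nucleotide genes were RRM1, RRM2, TYMS and TK1, and chromatin and histone genes UHRF1, CHAF1A, CHAF1B and SLBP. They are written below in mouse style. All 42 also passed the filter on low values, which kept 10672 symbols with at least 1 TPM (a length-corrected measure of transcript abundance) in 4 or more of the 78 libraries used.

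The libraries came from mouse T helper 17 (Th17) cells differentiated in culture, with poly(A) RNA as the measured material. Cells were treated with EGCG at 20 µM, set against its solvent DMSO, or with DHEA at 50 µM, set against its solvent methanol. EGCG is a polyphenol of green tea and DHEA a steroid hormone. Each treatment was given under a pathogenic cytokine mix (Th17p: IL1b, IL6 and IL23) and under a non-pathogenic one (Th17n: TGFb and IL6). For each condition there were 2 kinds of sample, cells sorted for exactly 1 division by dilution of the dye CFSE (Div.1) and unsorted cells (Total). Whether Div.1 and Total libraries of one well column share a culture or a mouse is not given in the sources used here, and comparisons between them treat all libraries as independent. This gave 16 groups of 5 libraries, described as biological replicates from mice, except that the DMSO-treated Div.1 groups of Th17p and Th17n held 4 each. The library of well A4 carries a Th17n label in a plate row of Th17p wells and was left out. The age, sex and strain of the mice and the time of harvest were not given in the sources used here. Each group filled its own stretch of a plate row, so plate position and group cannot be told apart.

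As background, a T cell that has been activated leaves rest when D-type cyclins with Cdk4 or Cdk6, and then cyclin E with Cdk2, phosphorylate the retinoblastoma protein and release E2F factors. E2F factors bind promoters of replication genes. Origins are licensed in G1, when the origin recognition complex, Cdc6 and Cdt1 load the Mcm2 to Mcm7 helicase on DNA, and they fire in S phase when Cdc7 kinase, Cdc45 and the GINS complex activate that helicase.

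Because E2F factors act through the promoter, the start regions of the genes were read in the RefSeq promoter table (assembly GRCm38.p6, 250 bases before to 50 after each annotated start). Of the 42 genes, 35 had an entry. The E2F letters TTTCGCGC, TTTGGCGC, TTTCCCGC or TTTGCCGC, on either strand, were found in 14 of these 35 genes, against 704 of all 27025 symbols in that table (2.605%). Matches on the 2 strands can overlap, as in Mcm5 and Mcm6. The cell cycle homology letters TTTGAA or TTCGAA were found in 7 of the 35 genes, against 21.661% of all symbols. A match describes the letters only. The stretches below belong to genes on which the results turn, and capitals mark the E2F letters. Mcm2 is shown as a gene whose window held none of them:
Mcm5, chr8:75109329-75109388, plus strand: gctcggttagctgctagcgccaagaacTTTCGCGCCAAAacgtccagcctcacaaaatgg
Mcm6, chr1:128359736-128359825, minus strand: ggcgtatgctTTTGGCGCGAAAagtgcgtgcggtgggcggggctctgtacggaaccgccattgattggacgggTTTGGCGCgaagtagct
Mcm7, chr5:138172014-138172073, minus strand: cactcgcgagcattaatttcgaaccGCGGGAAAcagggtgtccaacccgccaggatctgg
Mcm3, chr1:20820265-20820294, minus strand: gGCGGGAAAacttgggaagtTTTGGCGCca
Rfc3, chr5:151651209-151651268, minus strand: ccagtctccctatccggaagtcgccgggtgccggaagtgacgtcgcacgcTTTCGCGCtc
Mcm2, chr6:88898811-88898900, minus strand: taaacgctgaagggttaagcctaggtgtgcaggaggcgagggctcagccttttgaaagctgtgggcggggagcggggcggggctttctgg

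The values are TPM as deposited, with column sums of 880077 to 895017 and no read counts, so sequencing depth is unknown. T cell markers summed to 1158 to 1963 TPM in each library. Summed markers of Th17 cells averaged 850 TPM with EGCG and 3070 with DMSO in Th17p Total, and 1014 and 2854 TPM in Th17p Div.1. In Th17n they averaged 7232 and 7488 TPM in Total and 8383 and 4326 TPM in Div.1. With DHEA and methanol they averaged 585 and 2454 TPM in Th17p Total and 663 and 1793 TPM in Th17p Div.1. In Th17n these were 1264 and 5743 TPM in Total and 1818 and 4146 TPM in Div.1. Their part in the results was not tested. Summed markers of B, myeloid and dendritic cells stayed at or below 5.11, 1.69 and 1.71 TPM. The myeloid sum lacks the listed markers Adgre1 and Cd68, which were not found among the deposited symbols. Markers of CD8 and natural killer cells summed to 9.57 to 45.8 TPM, with Cd8a under 1 TPM in all 78 libraries. The median gene among the 42 varied within groups by an SD of 0.082 on the log2 scale, against 0.157 for the median of all genes tested. Exceptions were the low or erratic genes E2f1 (listed at 0 in 11 libraries), Cdc45 and Ccne2, with SDs of 0.98, 0.76 and 0.48. Changes are log2 differences of TPM + 1 from limma fitted over all 16 groups, and a gene is called at a Benjamini-Hochberg adjusted p under 0.05 over all 10672 genes. In bulk samples, fewer cells in S phase and less RNA per cell cannot be told apart.

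With EGCG, more of the 42 genes were lower than higher in Th17p cells, and 17 of them were lower in both unsorted and once-divided Th17p cells. Of all genes tested at most 11.9% can be lower in both, the share lower in Th17p Div.1. In Th17p Total cells 5 of the 42 genes were higher and 24 lower (44.9% of all genes tested called, 30.1% higher and 14.9% lower). In Th17p Div.1 cells 10 of the 42 genes were higher and 17 lower (45.6% of all genes tested called, 33.7% higher and 11.9% lower). In Th17n cells 8 were higher and 7 lower in Total (35.2% of all genes tested called, 21.7% higher and 13.5% lower) and 12 were higher and 6 lower in Div.1 (34.9% of all genes tested called, 28.1% higher and 6.77% lower). The median log2 change of the 42 genes was -0.22 in Th17p Total, where all genes tested had a median of 0.09. It was -0.06 in Th17p Div.1 (all genes 0.12), 0.04 in Th17n Total (all genes 0.05) and 0.03 in Th17n Div.1 (all genes 0.11).

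With DHEA, Rrm2, Gins1 and Cdk4 were lower and Ccnd2 and E2f2 higher in all 4 comparisons. Of all genes tested at most 14.6% can be lower and 18.1% higher in all 4, the smallest shares among them. The actual shares were not counted, so these limits do not show whether the 42 genes differ from all genes. In Th17p Total cells 4 of the 42 genes were higher and 15 lower (47.7% of all genes tested called, 20.9% higher and 26.8% lower), and in Th17p Div.1 cells 7 were higher and 16 lower (37.3% of all genes tested called, 18.1% higher and 19.2% lower). In Th17n Total cells 2 were higher and 13 lower (46.1% of all genes tested called, 20.8% higher and 25.3% lower), and in Th17n Div.1 cells 8 were higher and 5 lower (36.6% of all genes tested called, 22.1% higher and 14.6% lower). The last count, 13 in all, was 8 without the DHEA library of column 8 and 8 without the methanol library of column 6. The medians of the 42 genes were -0.05, -0.09, -0.06 and 0.02 in that order, where all genes tested had -0.02, 0.00, -0.01 and 0.05. Counted in both directions, 29 and 27 of the 42 genes were called with EGCG in Th17p Total and Div.1 and 23 with DHEA in Th17p Div.1. In the other 5 comparisons 13 to 19 were called. With DHEA the share of the 42 genes called was above that of all genes tested only in Th17p Div.1. It was below that share in Th17p Total, Th17n Total and Th17n Div.1.

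**Figure D1:**
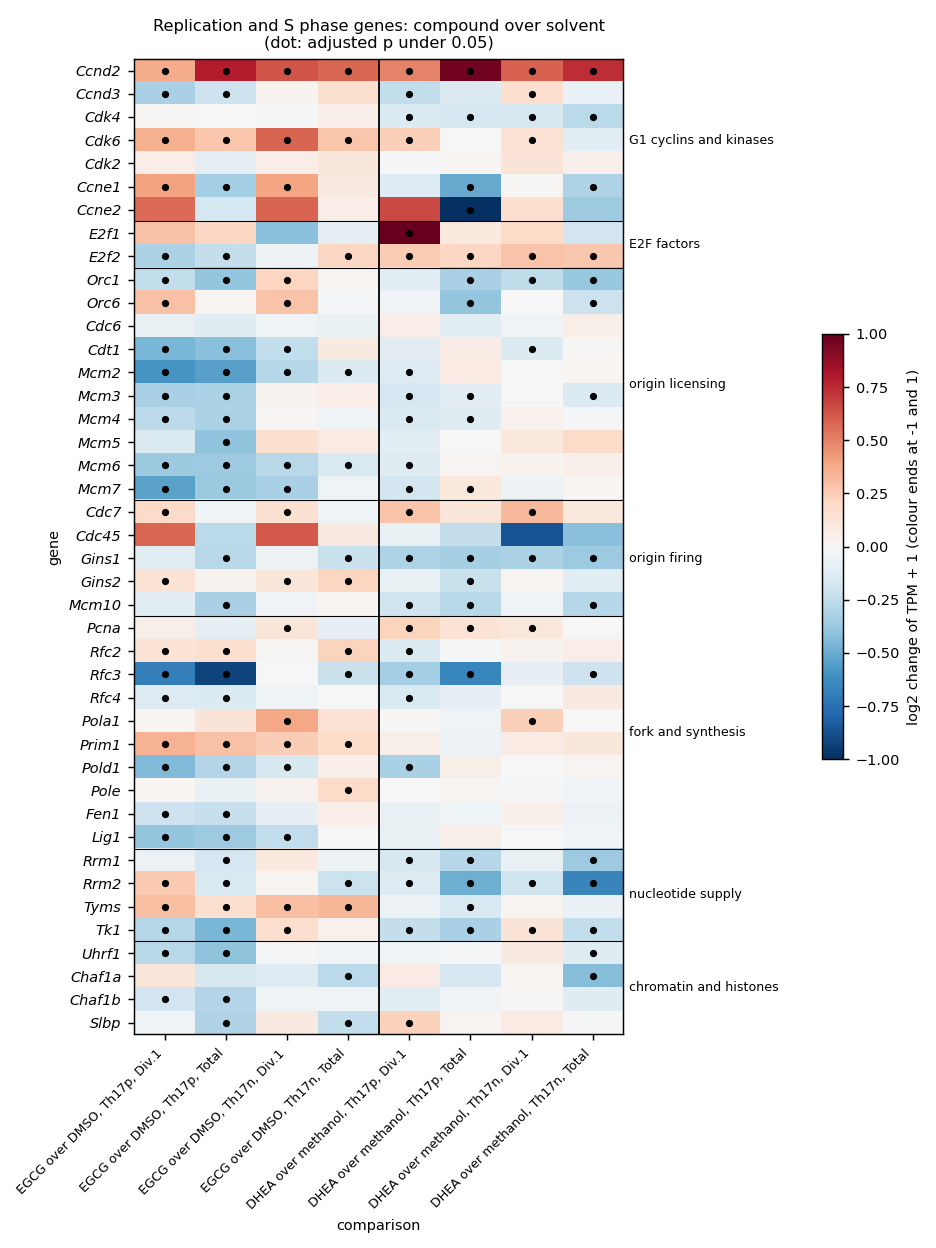
Log2 change of TPM + 1 of each of the 42 genes (rows, by role) in the 8 compound comparisons (columns); red is higher and blue lower with the compound, and a dot marks an adjusted p under 0.05. Ccnd2 is red and dotted in all 8 columns, the Mcm rows are bluest in the 2 columns of EGCG-treated Th17p cells, and the pale or strong undotted cells of Cdc45, Ccne2 and E2f1 belong to genes with wide spread.

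Rescaling each library to the median ratio over all genes lowered the median change of all genes by 0.10 with EGCG in Th17p Div.1 and by 0.11 in Th17n Div.1 (log2), and moved the counts with it. The splits then read 7 higher and 22 lower with EGCG in Th17p Div.1, and 6 higher and 17 lower in Th17n Div.1. With DHEA they read 7 and 13 in Th17p Total, 7 and 12 in Th17n Total, and 5 and 8 in Th17n Div.1. The markers of CD8 and natural killer cells summed to 25.9 TPM (range 19.3 to 31.7) with EGCG and 12.003 TPM (range 9.57 to 14.8) with DMSO in Th17p Total, and to 29.2 TPM (range 23.1 to 33.2) with EGCG and 15.7 TPM (range 14.3 to 19.1) with DMSO in Th17p Div.1. With DHEA they averaged 26.1, 28.03, 41.2 and 38.6 TPM in Th17p Total, Th17p Div.1, Th17n Total and Th17n Div.1, against 16.9, 20.6, 21.8 and 25.05 TPM with methanol. Among their defining genes Klrb1c was at 0 in 71 and Ncr1 in 74 of the 78 libraries. Others were present: Cd8b1 had a lowest value of 3.41, a median of 8.63 and a highest value of 26.9 TPM. Nkg7 and Klrd1 had medians of 5.81 and 3.33 TPM and highest values of 22.9 and 24.2 TPM. The part of CD8 and natural killer cells in the results was not tested.

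Cyclin D2 was the 1 gene higher in all 8 compound comparisons. Ccnd2 encodes a D-type cyclin that partners Cdk4 and Cdk6 and is induced on T cell activation. In Th17p Total cells its values were 113, 127, 130.3, 130.6 and 151 TPM in the EGCG libraries, against 71.2, 71.6, 72.8, 76.7 and 83.1 TPM in the DMSO libraries. Every EGCG library lay above every control (log2 change 0.78, SE 0.0730, adjusted p = 1.73e-14). In Th17n Total cells they were 132, 132, 133, 144 and 156 TPM in the EGCG libraries, against 87.03, 89.4, 94.2, 96.4 and 98.5 TPM in the DMSO libraries, again without overlap (log2 change 0.57, SE 0.0730, adjusted p = 2.78e-09). Changes in Div.1 were 0.37 in Th17p and 0.63 in Th17n.

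DHEA raised Ccnd2 as well. Its values in Th17p Total cells were 128, 128, 133, 141 and 151 TPM in the DHEA libraries, against 62.6, 64.9, 66.5, 71.8 and 81.7 TPM in the methanol libraries. The groups stood apart (log2 change 0.96, SE 0.0730, adjusted p = 4.07e-18). Values in Th17p Div.1 cells were 115, 120.9, 129.9, 134 and 136 TPM in the DHEA libraries, against 81.2, 89.7, 89.99, 92.96 and 95.4 TPM in the methanol libraries, apart as well (log2 change 0.50, SE 0.0730, adjusted p = 7.68e-08). In Th17n cells Ccnd2 had 144, 163, 164, 166 and 182 TPM with DHEA and 88.1, 91.4, 99.6, 99.8 and 111 TPM with methanol in Total (log2 change 0.74, SE 0.0730, adjusted p = 2.06e-13). In Th17n Div.1 it had 147, 152, 154, 159.9 and 171 TPM with DHEA and 95.8, 97.5, 99.2, 103 and 123 TPM with methanol (log2 change 0.59, SE 0.0730, adjusted p = 7.41e-10), and the lowest DHEA library stood above the highest control. The response of Ccnd2 in Th17p cells was smaller in Div.1 than in Total with EGCG (difference of log2 changes -0.42, SE 0.106, adjusted p = 0.0168) and with DHEA (difference of log2 changes -0.47, SE 0.103, adjusted p = 0.00159). Leaving out 1 library (group and well column) ended the call of Ccnd2, the EGCG response, Div.1 minus Total, Th17p (-0.36 without Th17p EGCG Total 5).

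Cdk6, a kinase partner of the D cyclins, was higher with EGCG in all 4 comparisons and with DHEA in the 2 Div.1 comparisons. In Th17p Div.1 cells Cdk6 had 43.7, 46.5, 47.2, 49.9 and 50.9 TPM with EGCG and 36.5, 36.5, 36.8 and 38.2 TPM with DMSO. In Th17n Div.1 cells it had 56.96, 56.98, 58.6, 60.2 and 60.4 TPM with EGCG and 36.6, 37.4, 39.3 and 41.996 TPM with DMSO. Neither pair of groups overlapped (log2 change 0.36, SE 0.0546, adjusted p = 1.43e-07) (log2 change 0.58, SE 0.0546, adjusted p = 6.41e-14). The rise in Div.1 was larger in Th17n than in Th17p (difference of log2 changes -0.23, SE 0.0773, adjusted p = 0.0283). Its partner kinase Cdk4 moved the other way with DHEA and was lower in all 4 comparisons, with log2 changes of -0.17 and -0.13 in Th17p Total and Div.1 and -0.27 and -0.16 in Th17n Total and Div.1. Cdk4 passed in no EGCG comparison (log2 changes -0.02 to 0.05), but after rescaling it was called lower with EGCG in 3 of the 4. Ccnd3, another D cyclin, fell with EGCG in Th17p Total (-0.21) and Div.1 (-0.32), and with DHEA in Th17p Div.1 (-0.25). It was called higher with DHEA in Th17n Div.1 (0.17, adjusted p = 0.0385), in overlapping groups. That call was lost without the filter, on rescaling (0.13), in a fit of the comparison's own groups, and without DHEA column 8, 9 or 10 or methanol column 6, 7 or 8 (0.13 to 0.16). Cdk2, the partner of cyclin E, passed in no compound comparison, with log2 changes of -0.09 to 0.13; after rescaling it was lower with EGCG in Th17p Total (log2 change -0.16). Leaving out 1 library (group and well column) ended the call of Cdk6, the EGCG response, Th17p minus Th17n, Div.1 (-0.21 to -0.20 without Th17n DMSO Div.1 1, Th17n DMSO Div.1 2, Th17p DMSO Div.1 5 or Th17p EGCG Div.1 2).

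Cyclin E1, which with Cdk2 drives the G1 to S transition, went opposite ways in the 2 sorts of Th17p cells under EGCG. In Div.1 cells Ccne1 had 119.6, 136, 137, 138 and 139 TPM with EGCG and 89.2, 99.2, 103 and 113 TPM with DMSO, and every EGCG library was above every control (log2 change 0.40, SE 0.0639, adjusted p = 2.72e-07). In Total cells it had 96.4, 104, 113, 119.7 and 123 TPM with EGCG and 130.7, 133, 140.0, 141 and 158 TPM with DMSO, with every EGCG library below every control (log2 change -0.34, SE 0.0603, adjusted p = 3.53e-06). The difference between the 2 responses passed its own test (difference of log2 changes 0.74, SE 0.0879, adjusted p = 2.13e-08). In Th17n cells Ccne1 rose with EGCG in Div.1 (0.39) and did not pass in Total (0.09, adjusted p = 0.231). DHEA lowered Ccne1 in Total cells, with log2 changes of -0.51 in Th17p and -0.31 in Th17n, and it passed in neither Div.1 comparison. Ccne2 was called lower once, with DHEA in Th17p Total (-1.18, adjusted p = 6.73e-04). Its values there were 5.76, 6.92, 9.73, 17.1 and 17.2 TPM in the DHEA libraries, against 16.2, 22.1, 27.8, 28.7 and 32.4 TPM in the methanol libraries, and the groups overlapped.

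**Figure D2:**
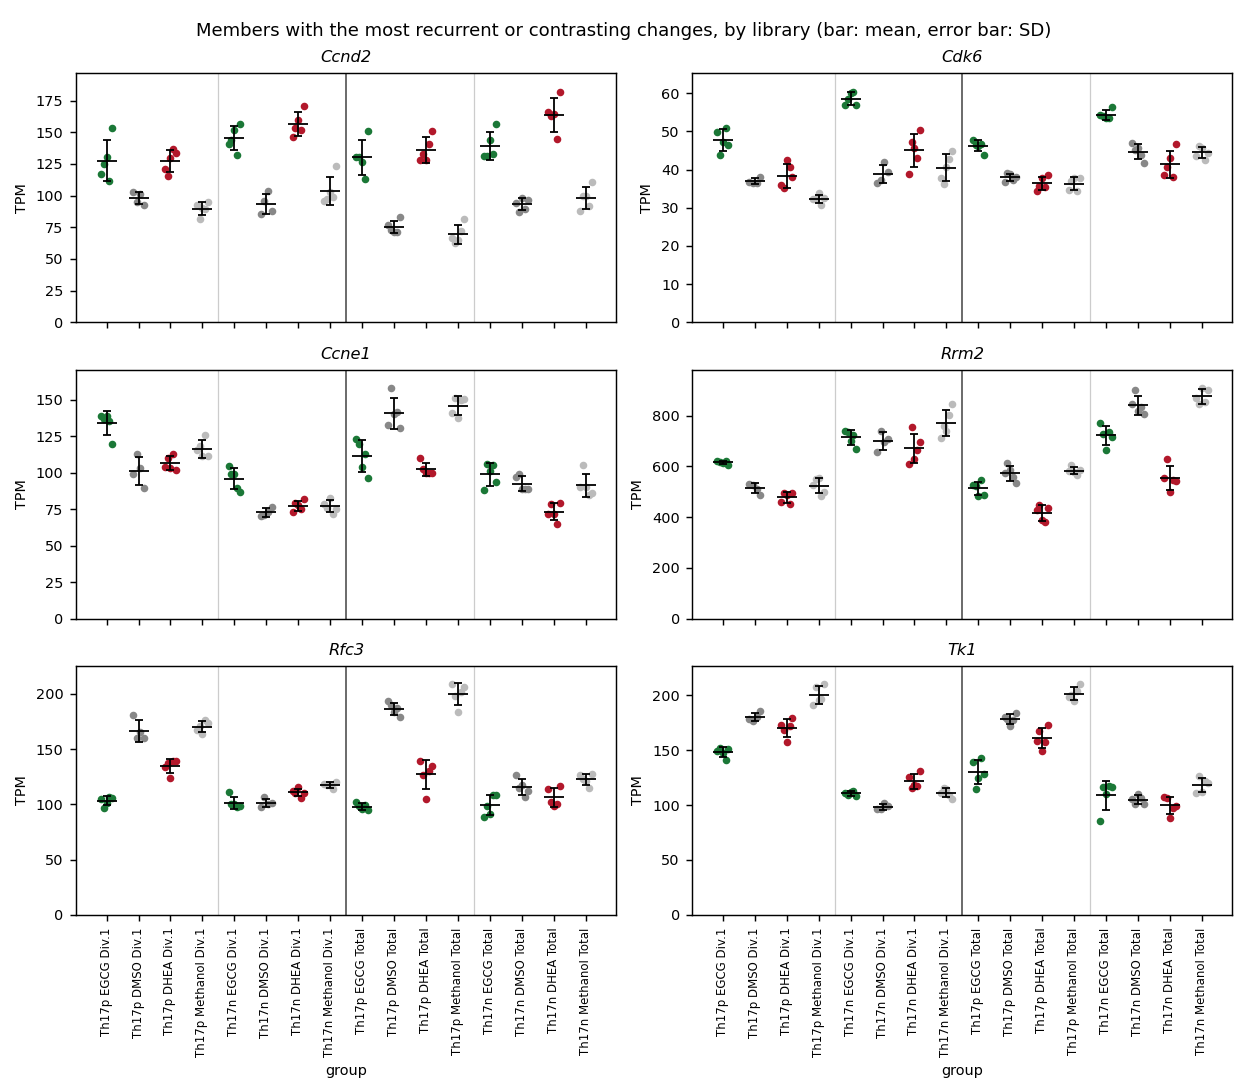
TPM of Ccnd2, Cdk6, Ccne1, Rrm2, Rfc3 and Tk1 in every library (points), with group means (bars) and SDs (error bars), for Div.1 groups in the left part and Total groups in the right part of each panel; each compound stands left of its solvent. Ccnd2 lies higher with either compound in every pair, Rfc3 and Tk1 lie highest in Th17p solvent libraries, and Rrm2 lies higher in Th17n than in Th17p solvent libraries.

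E2f2, an activating E2F, fell with EGCG in Th17p cells and rose with DHEA in all 4 comparisons. With EGCG its values in Th17p Total were 6.22, 6.504, 6.51, 6.74 and 6.80 TPM in the EGCG libraries, against 7.53, 7.65, 7.84, 8.15 and 8.48 TPM in the DMSO libraries. In Th17p Div.1 they were 6.27, 6.88, 6.97, 6.98 and 7.26 TPM in the EGCG libraries, against 7.96, 8.86, 9.01 and 9.36 TPM in the DMSO libraries. The groups stood apart in both (log2 change -0.24, SE 0.0651, adjusted p = 0.00162) (log2 change -0.32, SE 0.0690, adjusted p = 1.14e-04). In Th17n Total the sign was opposite, with 10.6, 10.7, 10.99, 11.8 and 12.4 TPM with EGCG and 9.11, 9.34, 9.52, 9.67 and 10.7 TPM with DMSO, and the groups overlapped (log2 change 0.21, SE 0.0651, adjusted p = 0.00974). The call in Th17n Total was lost in a fit of the comparison's own groups, as was the DHEA call of E2f2 in Th17p Total given next. That response differed between Th17p and Th17n Total cells (difference of log2 changes -0.45, SE 0.0920, adjusted p = 1.78e-04).

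With DHEA, E2f2 in Th17p Div.1 had 9.37, 10.8, 10.9, 11.3 and 11.3 TPM in the DHEA libraries, against 7.97, 8.86, 9.04, 9.14 and 9.18 TPM in the methanol libraries, without overlap (log2 change 0.25, SE 0.0651, adjusted p = 0.00136). In Th17p Total it had 9.20, 9.90, 10.1, 10.1 and 11.003 TPM with DHEA and 7.30, 8.27, 8.43, 9.55 and 9.57 TPM with methanol, in overlapping groups (log2 change 0.20, SE 0.0651, adjusted p = 0.0069). The Th17n groups overlapped as well. E2f2 had 13.03, 14.4, 14.7, 14.8 and 15.2 TPM with DHEA and 11.1, 11.1, 11.3, 11.8 and 13.9 TPM with methanol in Th17n Total (log2 change 0.27, SE 0.0651, adjusted p = 4.57e-04). It had 14.3, 14.4, 15.1, 15.9 and 17.2 TPM with DHEA and 10.9, 11.54, 12.5, 12.97 and 14.5 TPM with methanol in Th17n Div.1 (log2 change 0.28, SE 0.0651, adjusted p = 3.53e-04). E2f1, the founding E2F, was low and listed at 0 in 11 of the 78 libraries. The 1 comparison in which it was called was DHEA in Th17p Div.1, where libraries listed 0, 3.40, 6.56, 10.3 and 10.7 TPM in the DHEA libraries, against 0, 0, 0, 1.75 and 2.63 TPM in the methanol libraries. That call (log2 change 1.76, adjusted p = 0.016) was lost with a pseudocount of 0.1, with the groups of the comparison alone, and on leaving out the DHEA library of column 6 or 7. With EGCG in Th17n Div.1, E2f1 listed 0, 0, 1.57, 2.60 and 4.23 TPM in the EGCG libraries, against 1.43, 1.44, 2.46 and 2.47 TPM in the DMSO libraries and did not pass (adjusted p = 0.657). Leaving out 1 library (group and well column) ended the call of E2f2, DHEA in Th17p Total (0.15 without Th17p methanol Total 9).

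The helicase genes were lower with EGCG in Th17p cells. Mcm2 to Mcm7 encode the 6 subunits of the replicative helicase, loaded on origins as a double hexamer. All 6 fell with EGCG in Th17p Total and 5 of 6 in Th17p Div.1, the exception being Mcm5 (-0.14, adjusted p = 0.375). Summed over the 6 genes, the level was 1427 ± 42.6 TPM with EGCG and 1847 ± 32.4 TPM with DMSO in Th17p Total (SD, n = 5 each). It was 1511 ± 55.4 TPM with EGCG and 1956 ± 38.1 TPM with DMSO in Th17p Div.1 (SD, n = 5 with EGCG and 4 with DMSO). No EGCG library reached the lowest control in either sort. The Th17n sums were 1922 ± 52.2 TPM with EGCG and 1974 ± 60.96 TPM with DMSO in Total and 1765 ± 69.5 TPM with EGCG and 1929.8 ± 58.3 TPM with DMSO in Div.1. The sums stood apart in Th17n Div.1 too, at 1661 to 1840 TPM with EGCG and 1846 to 1972 TPM with DMSO. They overlapped in Th17n Total. Only Mcm2 and Mcm6 fell in both Th17n sorts.

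In Th17p Total cells Mcm2 had 135, 136, 137, 144 and 145 TPM in the EGCG libraries, against 189.6, 197, 206, 208 and 215 TPM in the DMSO libraries. The highest EGCG library was far below the lowest control (log2 change -0.54, SE 0.0421, adjusted p = 1.04e-17). In Th17p Div.1 cells Mcm7 had the smallest adjusted p of the licensing genes, with 244, 249.1, 254, 256 and 261 TPM with EGCG and 361, 365, 369 and 370.3 TPM with DMSO (log2 change -0.54, SE 0.0375, adjusted p = 1.34e-19). Those groups did not overlap. In Th17n Div.1 cells Mcm7 had 276, 279.7, 284, 299.7 and 302 TPM with EGCG and 348, 359.7, 364 and 376 TPM with DMSO, again apart (log2 change -0.33, SE 0.0375, adjusted p = 8.70e-11). In Th17n Total cells Mcm6 had 431, 467, 474, 474 and 485 TPM with EGCG and 489, 514, 516, 538 and 539 TPM with DMSO, and its groups were apart by a smaller distance (log2 change -0.16, SE 0.0350, adjusted p = 3.18e-04). The log2 changes of Mcm2 were -0.54 and -0.59 in Th17p Total and Div.1 and -0.14 and -0.29 in Th17n Total and Div.1.

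The size of the EGCG change differed between the 2 cytokine conditions. The fall was larger in Th17p than in Th17n Total cells for all 6 Mcm genes, and in Div.1 for Mcm2, Mcm3, Mcm4 and Mcm7. For Mcm2 in Total the difference was -0.40 (SE 0.0595, adjusted p = 4.66e-07). For Mcm3 in Div.1 it was -0.36 (adjusted p = 3.32e-05): Mcm3 had 384 ± 16.5 TPM with EGCG and 482 ± 4.01 TPM with DMSO in Th17p (SD, n = 5 and 4) and 457 ± 20.6 TPM with EGCG and 446 ± 17.9 TPM with DMSO in Th17n (SD, n = 5 and 4). The difference for Mcm5 in Total (-0.48, adjusted p = 0.0298) lost its call without the filter, without the wells of columns 1 and 10, and without 1 library of Th17p EGCG (column 1), Th17p DMSO (column 2 or 3), Th17n EGCG (column 3) or Th17n DMSO (column 1 or 2), with values of -0.46 to -0.42.

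**Figure D3:**
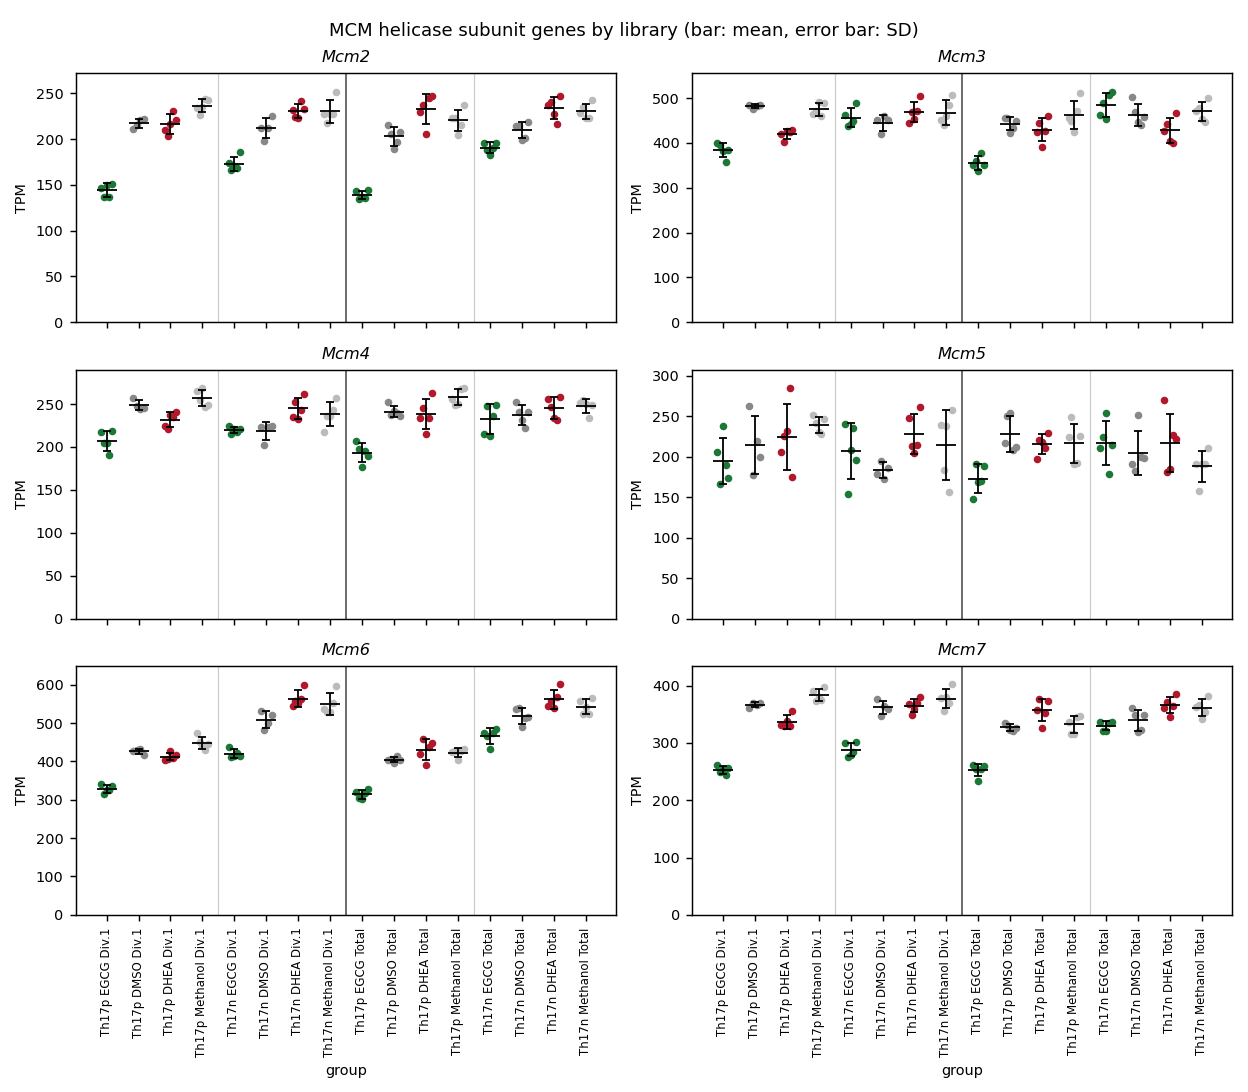
TPM of Mcm2 to Mcm7 in every library (points), with group means (bars) and SDs (error bars), Div.1 groups in the left part and Total groups in the right part of each panel, and each compound left of its solvent. The green EGCG points of Th17p lie below the gray DMSO points beside them in all 6 panels except for the overlapping Div.1 points of Mcm5, while Mcm6 lies higher in Th17n than in Th17p solvent libraries in both sorts.

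With DHEA the helicase genes had log2 changes between -0.19 and 0.19. Their Mcm2 to Mcm7 sum was 1842 ± 52.9 TPM with DHEA and 2040.4 ± 39.8 TPM with methanol in Th17p Div.1 (SD, n = 5 each), where all but Mcm5 passed as lower. In Th17p Total the sum was 1905 ± 108 TPM with DHEA and 1913 ± 82.7 TPM with methanol, with Mcm3 and Mcm4 called lower and Mcm7 higher. Each of the 3 calls was lost in a fit of the groups of the comparison alone. Mcm3 (-0.10 to -0.07) was lost without DHEA column 6, 8 or 9 or methanol column 9 or 10, Mcm4 (-0.11 to -0.08) without DHEA column 8 or methanol column 9 or 10, and Mcm7 (0.09) without DHEA column 7 or methanol column 7. Rescaling also ended the calls of Mcm3 and Mcm4 in Th17p Total. In Th17n Total the sum was 2052 ± 94.1 TPM with DHEA and 2041 ± 69.9 TPM with methanol, with Mcm3 called lower. In Th17n Div.1 it was 2102 ± 82.9 TPM with DHEA and 2078 ± 116 TPM with methanol. Mcm7 in Th17p Div.1 had 329, 329, 332, 338 and 357 TPM with DHEA and 374, 375, 379, 391 and 398 TPM with methanol, without overlap (log2 change -0.19, SE 0.0354, adjusted p = 1.74e-05). The response of Mcm7 differed between Div.1 and Total (difference of log2 changes -0.29, SE 0.0501, adjusted p = 4.86e-05). Among the loaders, Orc6, a subunit of the origin recognition complex, fell with DHEA in Th17p Total: it had 134, 134, 138, 143 and 149.9 TPM with DHEA and 172, 183, 184, 187 and 193 TPM with methanol, apart from each other (log2 change -0.39, SE 0.0491, adjusted p = 4.20e-10).

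Orc1, the ATPase subunit of the origin recognition complex, fell with DHEA in 3 comparisons. In Th17n Total cells it had 23.6, 23.9, 26.7, 26.8 and 30.7 TPM with DHEA and 29.5, 31.5, 34.8, 38.2 and 38.97 TPM with methanol, with an overlap (log2 change -0.38, SE 0.0801, adjusted p = 6.01e-05). In Th17n Div.1 cells it had 23.3, 24.1, 27.3, 28.99 and 33.9 TPM with DHEA and 29.5, 30.99, 33.9, 34.4 and 35.1 TPM with methanol, likewise overlapping (log2 change -0.25, SE 0.0801, adjusted p = 0.0093), and this call was lost in a fit of the comparison's own groups. With EGCG Orc1 fell in Th17p Total (-0.39) and Div.1 (-0.24). In Th17n Div.1 Orc1 was called higher with EGCG (0.21, adjusted p = 0.0453), in overlapping groups. That call was lost without the filter, on rescaling (0.09), with well A4 in its labelled group (0.13), without columns 1 and 10 (0.17), and without EGCG column 2, 3 or 5 or DMSO column 1, 2 or 4 (0.16 to 0.22). Orc6 rose with EGCG in Div.1 cells of both conditions (0.30 in Th17p and 0.28 in Th17n) and passed in neither Total comparison. With DHEA Orc6 also fell in Th17n Total (-0.21). Cdt1, which brings the helicase to the origin, fell with EGCG in Th17p Total (-0.42) and Div.1 (-0.46) and in Th17n Div.1 (-0.24), and with DHEA in Th17n Div.1 (-0.14). The DHEA groups overlapped, and the call was lost without the filter, in a fit of the comparison's own groups, and without DHEA column 6, 7 or 8 or methanol column 6 or 10 (-0.14 to -0.11). Cdc6, the other loader, passed in no compound comparison. Its lowest value was 2.36, its median 4.02 and its highest 7.30 TPM over the 78 libraries. Leaving out 1 library (group and well column) ended the call of Orc1, DHEA in Th17n Div.1 (-0.20 without Th17n DHEA Div.1 8).

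Among the origin firing genes, Gins1 and Mcm10 fell together in Total cells of Th17p with either compound. Gins1 belongs to the GINS complex of the active helicase, and Mcm10 helps that helicase to start. With EGCG in Th17p Total Mcm10 had 29.9, 31.6, 31.996, 32.7 and 34.7 TPM with EGCG and 37.6, 39.8, 41.2, 41.6 and 42.1 TPM with DMSO, without overlap (log2 change -0.32, SE 0.0552, adjusted p = 1.62e-06). With DHEA in the same cells it had 35.02, 35.7, 36.2, 37.1 and 39.3 TPM with DHEA and 41.8, 44.3, 44.5, 45.8 and 47.0002 TPM with methanol, also without overlap (log2 change -0.28, SE 0.0552, adjusted p = 1.90e-05). Th17n Total cells showed the same direction with DHEA. Mcm10 had 30.2, 32.3, 32.3, 34.9 and 35.3 TPM with DHEA and 36.4, 39.8, 40.5, 41.2 and 44.01 TPM with methanol there (log2 change -0.28, SE 0.0552, adjusted p = 1.58e-05). Gins1 was lower with DHEA in all 4 comparisons, with log2 changes of -0.33 and -0.31 in Th17p Total and Div.1 and -0.36 and -0.32 in Th17n Total and Div.1.

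Cdc7, the kinase that phosphorylates the loaded helicase, rose in once-divided cells. With DHEA it had 40.5, 41.5, 42.4, 43.02 and 44.01 TPM with DHEA and 32.6, 33.6, 33.9, 34.2 and 38.2 TPM with methanol in Th17p Div.1 (log2 change 0.29, SE 0.0571, adjusted p = 3.82e-05). In Th17n Div.1 it had 38.8, 42.1, 42.9, 44.6 and 44.6 TPM with DHEA and 32.3, 32.4, 34.04, 34.6 and 35.96 TPM with methanol (log2 change 0.32, SE 0.0571, adjusted p = 5.25e-06). All DHEA libraries were above all controls in both. With EGCG Cdc7 had 41.3, 42.6, 43.5, 43.8 and 47.1 TPM with EGCG and 33.7, 37.9, 38.7 and 42.9 TPM with DMSO in Th17p Div.1, with an overlap (log2 change 0.19, SE 0.0606, adjusted p = 0.00815). In Th17n Div.1 it had 38.1, 38.9, 40.4, 41.3 and 42.6 TPM with EGCG and 34.3, 34.95, 35.5 and 39.7 TPM with DMSO, overlapping too (log2 change 0.15, SE 0.0606, adjusted p = 0.0398). Both EGCG calls were lost on rescaling. Gins2, another GINS subunit, rose with EGCG in Th17n Total, where it had 125, 133, 137, 139 and 140.4 TPM with EGCG and 109.8, 116, 117, 118 and 119 TPM with DMSO and the groups were apart (log2 change 0.22, SE 0.0467, adjusted p = 1.82e-04). Its smaller rises in Th17p Div.1 (0.14) and Th17n Div.1 (0.12) were lost on rescaling, and the value in Th17n Div.1 turned to a log2 change of -0.0053. With DHEA Gins2 fell in Th17p Total (-0.23). Cdc45, which joins Mcm and GINS proteins in the active helicase, ranged from 1.55 to 28.4 TPM over the libraries and passed in no compound comparison. Leaving out 1 library (group and well column) ended the call of Cdc7, EGCG in Th17p Div.1 (0.13 without Th17p DMSO Div.1 5). It also ended Cdc7, EGCG in Th17n Div.1 (0.13 to 0.15 without Th17n DMSO Div.1 1, Th17n DMSO Div.1 2, Th17n DMSO Div.1 3, Th17n EGCG Div.1 1, Th17n EGCG Div.1 4 or Th17n EGCG Div.1 5).

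Rfc3 had the lowest log2 change of the 42 genes with EGCG in both sorts of Th17p cells. It encodes a small subunit of replication factor C, which opens and loads the PCNA clamp. In Th17p Total cells it had 94.98, 95.6, 98.2, 99.1 and 102 TPM in the EGCG libraries, against 179, 184, 187, 189.8 and 193 TPM in the DMSO libraries. The highest EGCG library lay well under the lowest control (log2 change -0.92, SE 0.0511, adjusted p = 1.52e-24). In Th17p Div.1 cells Rfc3 had 97.04, 101.3, 105, 106 and 107 TPM with EGCG and 160.0, 160.1, 166 and 181 TPM with DMSO, apart again (log2 change -0.69, SE 0.0542, adjusted p = 2.85e-17). In Th17n cells it fell less with EGCG in Total (-0.22) and did not pass in Div.1 (0.00, adjusted p = 0.994). The difference between the 2 conditions was -0.70 in Total (adjusted p = 2.54e-11) and -0.69 in Div.1 (adjusted p = 3.28e-10).

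DHEA lowered Rfc3 too. In Th17p Total it had 105, 126, 130.2, 135 and 139 TPM with DHEA and 184, 198, 202, 206 and 209 TPM with methanol, without overlap (log2 change -0.65, SE 0.0511, adjusted p = 1.56e-17). In Th17n Total it had 98.5, 100.1, 102, 114 and 117 TPM with DHEA and 115, 121.1, 123, 126 and 128 TPM with methanol, with overlap (log2 change -0.21, SE 0.0511, adjusted p = 5.75e-04). The fall was larger in Th17p in Total (difference of log2 changes -0.45, SE 0.0723, adjusted p = 4.38e-06) and in Div.1 (-0.25, adjusted p = 0.00974). The other clamp loader genes had smaller values. Rfc4 had log2 changes of -0.14 and -0.13 with EGCG in Th17p Total and Div.1, both called, and Rfc2 rose slightly with EGCG in Th17p Total (0.16) and Div.1 (0.14), 2 calls that were lost on rescaling. In Th17n Total cells Rfc2 had 213, 214, 219.9, 232 and 232 TPM with EGCG and 184, 187, 193, 193 and 196 TPM with DMSO and the groups were apart (log2 change 0.22, SE 0.0395, adjusted p = 8.28e-06). With DHEA in Th17p Div.1 both fell (Rfc2 -0.15 and Rfc4 -0.15).

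The polymerase and ligation genes split. With EGCG in Th17p Total and Div.1, Pold1, the catalytic subunit of polymerase delta, fell by log2 changes of -0.29 and -0.44. The flap nuclease gene Fen1 fell (-0.23 and -0.21), as did the ligase gene Lig1 (-0.37 and -0.39). Prim1, the primase catalytic subunit, rose with EGCG in all 4 comparisons (0.29, 0.35, 0.18 and 0.25 in Th17p Total, Th17p Div.1, Th17n Total and Th17n Div.1), the call in Th17n Div.1 being lost on rescaling. In Th17n Div.1 cells Lig1 had 123, 124, 127, 129 and 129.99 TPM with EGCG and 145, 146, 155 and 157 TPM with DMSO, without overlap (log2 change -0.25, SE 0.0458, adjusted p = 1.31e-05). With DHEA Pold1 fell in Th17p Div.1, with 92.1, 96.4, 98.5, 100.4 and 102 TPM with DHEA and 116, 120.5, 123, 124 and 131.1 TPM with methanol and no overlap (log2 change -0.32, SE 0.0478, adjusted p = 8.51e-08). That response differed from the one in Total (difference of log2 changes -0.38, SE 0.0676, adjusted p = 8.55e-05) and from the one in Th17n Div.1 (difference of log2 changes -0.32, SE 0.0676, adjusted p = 3.25e-04).

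Pola1, the catalytic subunit of polymerase alpha, rose in Th17n Div.1 cells with both compounds. With DHEA it had 22.5, 24.2, 24.9, 25.6 and 28.3 TPM with DHEA and 18.4, 19.2, 21.03, 22.2 and 24.7 TPM with methanol in overlapping groups (log2 change 0.24, SE 0.0816, adjusted p = 0.0153), a call lost in a fit of the comparison's own groups. With EGCG the log2 change was 0.39. Pcna, the sliding clamp, rose with DHEA in Th17p Total (0.14) and Div.1 (0.23). In Th17n Div.1 it was called higher with DHEA (0.11, adjusted p = 0.0483), in overlapping groups. That call was lost without the filter, on rescaling (0.07), without the trend, in a fit of the comparison's own groups, and without DHEA column 7, 8, 9 or 10 or methanol column 6, 7 or 8 (0.08 to 0.11). Its rise with EGCG in Th17n Div.1 (0.12) turned to -0.0092 on rescaling. Pole, the catalytic subunit of polymerase epsilon, was called once among the compound comparisons, higher with EGCG in Th17n Total (0.19). Leaving out 1 library (group and well column) ended the call of Pola1, DHEA in Th17n Div.1 (0.20 to 0.21 without Th17n DHEA Div.1 10, Th17n methanol Div.1 6 or Th17n methanol Div.1 9).

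Nucleotide supply genes moved with both compounds. Rrm1 and Rrm2 encode the large and small subunits of ribonucleotide reductase, Tk1 the thymidine kinase of the salvage route and Tyms thymidylate synthase. Rrm2 fell with DHEA in all 4 comparisons. In Th17p Total it had 379, 387, 427, 437 and 446 TPM with DHEA and 564, 579, 581, 584 and 605 TPM with methanol, without overlap (log2 change -0.49, SE 0.0492, adjusted p = 2.87e-13). In Th17n Total it had 499, 544, 546, 555 and 628 TPM with DHEA and 845, 852, 869, 901 and 909 TPM with methanol, also apart (log2 change -0.66, SE 0.0492, adjusted p = 2.55e-18). The fall was smaller in Div.1: Rrm2 had 610.4, 629, 664, 697 and 753 TPM with DHEA and 712, 739.6, 759, 801 and 844 TPM with methanol in Th17n Div.1, with overlap (log2 change -0.20, SE 0.0492, adjusted p = 6.87e-04). The difference between Div.1 and Total passed in Th17n (difference of log2 changes 0.46, SE 0.0696, adjusted p = 3.20e-05) and in Th17p (difference of log2 changes 0.36, SE 0.0696, adjusted p = 2.83e-04). The call in Th17p Div.1 (-0.13, adjusted p = 0.0293) was lost without the filter and without the DHEA library of column 6 or 9 or the methanol library of column 6, 7 or 8 (log2 changes -0.13 to -0.11).

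With EGCG Rrm2 changed sign between the sorts of Th17p cells. It averaged 615 ± 6.62 TPM with EGCG and 513 ± 19.96 TPM with DMSO in Div.1 (SD, n = 5 with EGCG and 4 with DMSO) and 513 ± 26.6 TPM with EGCG and 572 ± 28.7 TPM with DMSO in Total (SD, n = 5 each). It rose in Div.1 (0.26) and fell in Total (-0.16), and the responses differed (difference of log2 changes 0.42, SE 0.0717, adjusted p = 1.18e-04). Rrm2 also fell with EGCG in Th17n Total (-0.22). Rrm1 fell with EGCG in Th17p Total (-0.17), and with DHEA in Th17p Total (-0.29), Th17p Div.1 (-0.16) and Th17n Total (-0.36).

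Tk1 fell with EGCG in Th17p cells. In Total it had 115, 125, 129, 139 and 143 TPM with EGCG and 172, 178, 178, 180.3 and 184 TPM with DMSO, without overlap (log2 change -0.46, SE 0.0520, adjusted p = 2.64e-11). The Th17n Total change did not pass (0.04, adjusted p = 0.547), and the difference between the conditions did (-0.50, adjusted p = 4.64e-07). In Div.1 Tk1 fell in Th17p (-0.28) and rose in Th17n (0.17); the rise was lost on rescaling, and with well A4 in its labelled group it was a log2 change of -0.0048 and the difference between the conditions was no longer called. With DHEA in Th17p Div.1 Tk1 had 157, 168, 172, 173 and 179.6 TPM with DHEA and 192, 196, 197, 207 and 210.0 TPM with methanol, without overlap (log2 change -0.23, SE 0.0520, adjusted p = 2.04e-04). It fell with DHEA in Total cells too (-0.32 in Th17p and -0.25 in Th17n). In Th17n Div.1 Tk1 was called higher with DHEA (0.13, adjusted p = 0.0493), also without overlap. That call was lost with a pseudocount of 0.1, without the filter, on rescaling (0.09), without the trend, in a fit of the comparison's own groups, without columns 1 and 10 (0.08), and without DHEA column 6, 8 or 10 or methanol column 6, 9 or 10 (0.10 to 0.14). Tyms fell with DHEA in Th17p Total (-0.15). Tyms rose with EGCG in all 4 comparisons. In Th17p Div.1 it had 79.3, 81.1, 82.8, 86.3 and 88.9 TPM with EGCG and 63.7, 67.7, 68.2 and 71.3 TPM with DMSO (log2 change 0.30, SE 0.0512, adjusted p = 1.32e-06). In Th17n it had 65.4, 67.002, 70.3, 72.9 and 73.3 TPM with EGCG and 52.6, 54.1, 54.7, 55.6 and 58.6 TPM with DMSO in Total (log2 change 0.33, SE 0.0483, adjusted p = 8.60e-08) and 65.6, 68.6, 69.6, 70.3 and 72.7 TPM with EGCG and 52.4, 54.9, 58.1 and 59.7 TPM with DMSO in Div.1 (log2 change 0.30, SE 0.0512, adjusted p = 3.09e-06). None of these 3 pairs of groups overlapped, and the call in Th17p Total (0.16) was lost on rescaling and without the EGCG library of column 4 (log2 change 0.11).

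Uhrf1, which reads hemimethylated DNA behind the fork, fell with EGCG in Th17p cells. In Total it had 119, 124, 126, 131.3 and 133 TPM with EGCG and 163, 167, 167, 169.9 and 174 TPM with DMSO, without overlap (log2 change -0.41, SE 0.0418, adjusted p = 8.00e-13). In Div.1 it had 135, 135, 139.6, 147 and 148 TPM with EGCG and 169.9, 171, 172 and 172 TPM with DMSO, also apart (log2 change -0.28, SE 0.0444, adjusted p = 3.32e-07). The change was larger in Th17p than in Th17n in Total (-0.37, adjusted p = 2.89e-06) and in Div.1 (-0.26, adjusted p = 0.0018). With DHEA, Uhrf1 was called lower in 1 of the 4 comparisons. Chaf1b, a subunit of the histone chaperone CAF-1, fell with EGCG in Th17p Total (-0.29) and Div.1 (-0.20). Its partner Chaf1a fell with DHEA in Th17n Total, with 43.9, 48.2, 48.2, 50.2 and 61.6 TPM with DHEA and 65.6, 66.3, 68.5, 69.04 and 69.6 TPM with methanol (log2 change -0.43, SE 0.0896, adjusted p = 5.15e-05) and no overlap. Chaf1a was also called lower with EGCG in Th17n Total, in overlapping groups (37.4 to 64.2 TPM with EGCG and 59.8 to 72.2 TPM with DMSO). It did not pass with EGCG in Th17n Div.1 (43.04, 57.9, 60.7, 63.7 and 65.3 TPM with EGCG and 57.7, 63.8, 64.3 and 67.3 TPM with DMSO, adjusted p = 0.296).

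Slbp binds the stem loop of replication-dependent histone mRNA. With EGCG Slbp fell in Total cells. In Th17n Total it had 177, 179.96, 192, 197 and 202 TPM with EGCG and 206, 216, 224, 228 and 254 TPM with DMSO, without overlap (log2 change -0.25, SE 0.0550, adjusted p = 2.57e-04). With DHEA in Th17p Div.1 it had 194, 197, 199, 209 and 223 TPM with DHEA and 159.9, 169.8, 178, 180.02 and 183 TPM with methanol, and it rose (log2 change 0.23, SE 0.0550, adjusted p = 6.32e-04). Chaf1a with DHEA in Th17p Total (58.8, 64.98, 66.3, 66.8 and 69.3 TPM with DHEA and 69.1, 70.4, 70.7, 76.99 and 80.4 TPM with methanol, adjusted p = 0.114) and Uhrf1 with DHEA in Th17n Div.1 (181, 195, 198, 204 and 206 TPM with DHEA and 175, 179, 179.6, 186 and 204 TPM with methanol, adjusted p = 0.0784) did not pass, and both pairs of groups overlapped.

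The difference between the cytokine conditions in the EGCG response was then counted over all members. In Total cells the change was lower in Th17p than in Th17n for 21 genes and higher for 0 (19.9% of all genes tested called, 12.4% higher and 7.55% lower). In Div.1 cells it was lower for 12 and higher for 1, Rrm2 (17.5% of all genes tested called, 9.12% higher and 8.38% lower). With well A4 in its labelled group 12 were lower and 0 higher, so Rrm2 lost its call. Without single libraries 0 to 1 were higher. The median difference of the 42 was -0.23 in Total (all genes 0.03) and -0.11 in Div.1 (all genes -0.01). By role, 8 of 10 licensing genes and 5 of 10 fork genes were lower in Total. Among them Cdt1 fell in Th17p and did not pass in Th17n Total (difference of log2 changes -0.51, SE 0.0757, adjusted p = 5.75e-07). For DHEA the same count was 2 lower and 0 higher in Total (14.8% of all genes tested called, 8.06% higher and 6.73% lower) and 9 lower and 0 higher in Div.1 (15.9% of all genes tested called, 6.49% higher and 9.39% lower). The 2 genes in Total were Rfc3 and Rfc4 (-0.18, adjusted p = 0.0474). The DHEA Total count was 1 without any one of 11 libraries (named in the closing section) and 4 without the Th17p DHEA Total library of column 10. With well column numbers as a block in the fit, 5 were higher and 4 lower. Ccnd3 was among the 9 in Div.1 (-0.42, adjusted p = 9.00e-04), a count that was 4 without the Th17n DHEA Div.1 library of column 10; after rescaling 7 were lower and 1 higher.

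**Figure D4:**
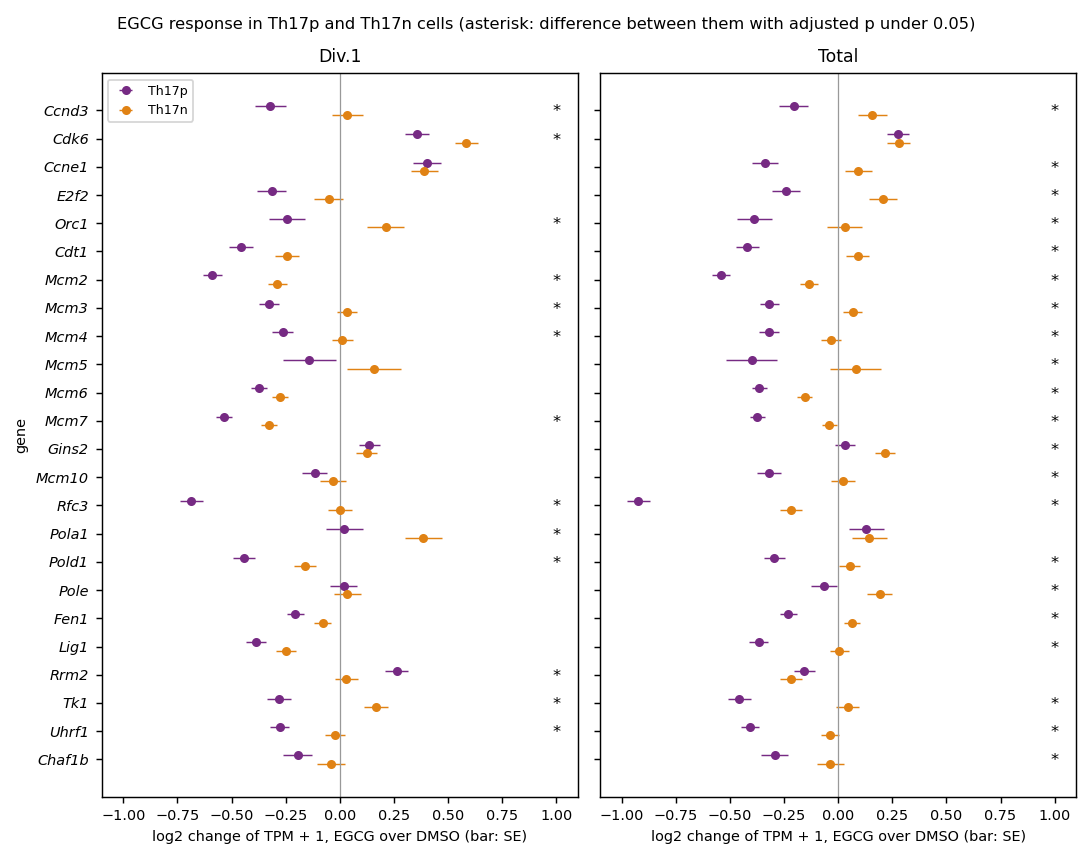
Log2 change of TPM + 1 with EGCG over DMSO (points, with SE bars) in Th17p (purple) and Th17n (orange) cells, for the genes whose response differed between them in Div.1 (left) or Total (right), where an asterisk marks that difference. The purple points lie left of the orange ones at every asterisk except Rrm2 in Div.1, and Rfc3 lies farthest left.

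The response also differed between sorts. With EGCG the Div.1 change exceeded the Total change for 3 Th17p genes and was below it for 1 (2.57% of all genes tested called, 1.35% higher and 1.22% lower). The 3 were Ccne1, Rrm2 and Orc6 (0.27, adjusted p = 0.0224), and the 1 was Ccnd2. That count was 7 without the DMSO Div.1 library of column 1 (6 higher and 1 lower). It was 2 without the EGCG Total library of column 5 (2 higher and 0 lower), so at least 1 of the 3 higher genes also lost its call there. In Th17n 7 were higher and 5 lower (13.3% of all genes tested called, 10.8% higher and 2.53% lower), with Slbp (0.34, adjusted p = 0.00226) and Orc6 (0.29, adjusted p = 0.00289) among the higher, and Mcm7 (-0.29, adjusted p = 6.74e-05) and Cdt1 (-0.33, adjusted p = 0.00183) among the lower. Rescaling turned this split to 3 higher and 11 lower. The Th17p split became 3 higher and 2 lower.

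With DHEA in Th17p, 6 genes were higher and 5 lower in Div.1 than in Total (9.91% of all genes tested called, 5.6% higher and 4.31% lower; 6 and 8 after rescaling). Orc6 (0.35, adjusted p = 3.21e-04) was among the higher. In Th17n 9 were higher and 0 lower (6.79% of all genes tested called, 5.12% higher and 1.68% lower; 4 and 2 after rescaling). They included Tk1 (0.37, adjusted p = 0.00123), Rrm1 (0.29, adjusted p = 0.00191) and Ccne1 (0.32, adjusted p = 0.0148). The Th17n count of 9 was 4 without the DHEA Div.1 library of column 10 and 5 without the methanol Div.1 library of column 7.

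The 2 cytokine conditions were also compared without compound. In solvent libraries, DMSO and methanol averaged, 12 genes were higher and 13 lower in Th17p than in Th17n Total cells (57.4% of all genes tested called, 30.9% higher and 26.5% lower). In Div.1 18 were higher and 6 lower (60.6% of all genes tested called, 34.9% higher and 25.7% lower; 14 and 13 after rescaling). The shares of the 42 genes called were near those of all genes tested. Tk1 had the largest difference. In Th17p Total it had a lowest value of 172, a median of 189 and a highest value of 210.0 TPM over 10 libraries. In Th17n Total it had a lowest value of 100.9, a median of 111 and a highest value of 127 TPM over 10 libraries. The ranges were far apart (log2 change 0.76, SE 0.0368, adjusted p = 5.78e-29), and Div.1 cells showed the same (log2 change 0.86, SE 0.0390, adjusted p = 3.07e-30).

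Rfc3 and Ccne1 shared that direction. Rfc3 in Th17p Total had a lowest value of 179, a median of 192 and a highest value of 209 TPM, against a lowest value of 107, a median of 119 and a highest value of 128 TPM in Th17n Total (log2 change 0.69, SE 0.0362, adjusted p = 3.45e-27). Ccne1 in Th17p Total had a lowest value of 130.7, a median of 141 and a highest value of 158 TPM, against a lowest value of 84.5, a median of 89.5 and a highest value of 105 TPM in Th17n Total (log2 change 0.64, SE 0.0426, adjusted p = 1.45e-21). The ranges did not overlap in either case. Both were also higher in Th17p Div.1 (log2 changes 0.62 and 0.53). Rrm2 was lower in Th17p Total (-0.57) and Div.1 (-0.50), and so were Mcm6 (-0.36 and -0.27), E2f2 (-0.34 and -0.36) and Gins1 (-0.32 and -0.24). Of the helicase genes Mcm6 was lower in both sorts: in Th17p Total it had a lowest value of 397, a median of 409.5 and a highest value of 434 TPM, against a lowest value of 489, a median of 531 and a highest value of 566 TPM in Th17n Total (log2 change -0.36, SE 0.0248, adjusted p = 7.26e-21). Uhrf1 was lower in Th17p Total (-0.15).

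**Figure D5:**
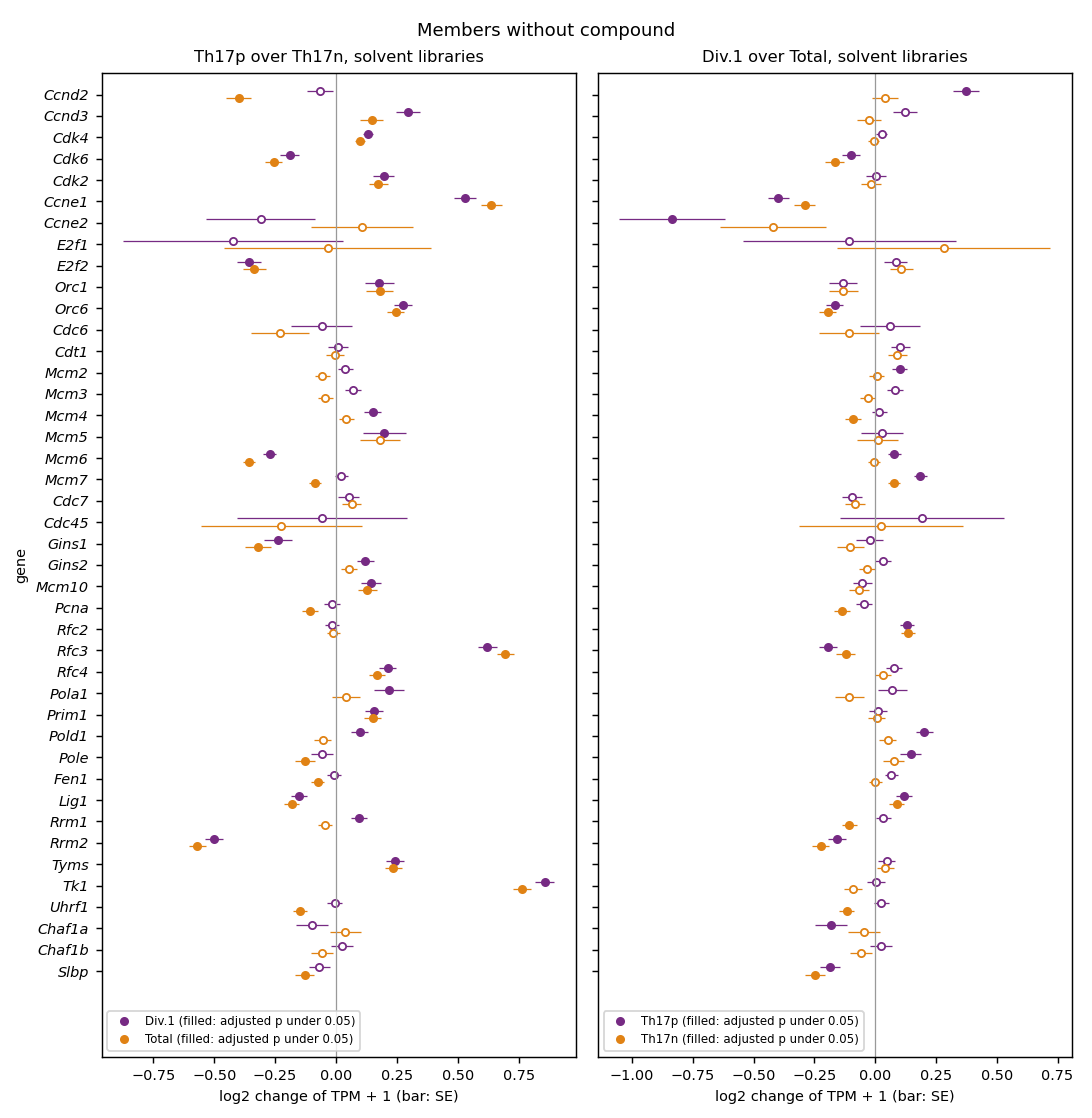
Log2 change of TPM + 1 in solvent libraries (points, with SE bars; filled where the adjusted p is under 0.05) for Th17p over Th17n in Div.1 and Total cells (left) and for Div.1 over Total in Th17p and Th17n cells (right). Tk1, Rfc3 and Ccne1 lie farthest right and Rrm2 farthest left among filled points in the left panel, and Ccne1, Rrm2 and Slbp lie left of 0 in both conditions in the right panel.

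Cells that had divided once were then set against unsorted cells. In Th17p solvents 8 genes were higher and 8 lower in Div.1 than in Total (19.4% of all genes tested called, 8.63% higher and 10.8% lower; 13 and 8 after rescaling). In Th17n solvents 3 were higher and 10 lower (21.9% of all genes tested called, 5.8% higher and 16.1% lower; 7 and 7 after rescaling). Lower in both conditions were Cdk6, Ccne1, Orc6, Rfc3, Rrm2 and Slbp, and higher in both were Mcm7, Rfc2 and Lig1. Ccne1 in Th17p Div.1 had a lowest value of 89.2, a median of 111 and a highest value of 126 TPM over 9 libraries, against a lowest value of 130.7, a median of 141 and a highest value of 158 TPM over 10 Total libraries (log2 change -0.40, SE 0.0439, adjusted p = 4.37e-10). The same change in Th17n was -0.29 (adjusted p = 7.87e-07). Slbp changed by -0.19 in Th17p and -0.25 in Th17n. Ccnd2 was higher in Div.1 in Th17p (0.38) and did not pass in Th17n (0.04, adjusted p = 0.645). Pold1 was higher in Th17p Div.1 (0.20).

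Other genes of the same pathway were read from lists of textbook members, also chosen with earlier results of these data known. Of 35 further replication genes, all tested, EGCG in Th17p Div.1 raised 14 and lowered 6 (median log2 change 0.08), and in Th17p Total it raised 5 and lowered 13 (median -0.04). Of all genes tested, 33.7% were higher and 11.9% lower in Th17p Div.1, and 30.1% higher and 14.9% lower in Th17p Total. Pold4, a small subunit of polymerase delta, rose in both (1.15 in Total and 0.92 in Div.1), and Orc5 rose as well (0.56 and 0.72). Recql4, a helicase of origin firing, fell (-0.65 and -0.58). DHEA lowered 18 and raised 2 of the 35 in Th17p Total, and lowered 14 and raised 1 in Th17n Total (all genes 26.8% lower and 20.9% higher in Th17p Total, 25.3% and 20.8% in Th17n Total). Of 28 further E2F targets, EGCG lowered 15 and raised 1 in Th17p Total, and lowered 8 and raised 6 in Th17p Div.1 (the all-gene shares being those given for EGCG above). Ccna2, cyclin A2, was -0.53 and -0.39 in the same order, and both passed.

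Genes of G2 and mitosis were mostly lower. Of 22 G2 and mitosis genes, EGCG lowered 19 in Th17p Total and 19 in Th17p Div.1, 14 in Th17n Total and 12 in Th17n Div.1, and raised none of them. Of all genes tested 14.9%, 11.9%, 13.5% and 6.77% were lower in that order. DHEA lowered 17 in Th17p Total, 17 in Th17p Div.1, 19 in Th17n Total and 15 in Th17n Div.1, and raised 1 gene, Top2a, in each Div.1 comparison. The all-gene shares lower with DHEA were 26.8%, 19.2%, 25.3% and 14.6% in that order. The medians with EGCG were -0.51 and -0.51 in Th17p Total and Div.1, where all genes tested had 0.09 and 0.12. Plk1, a mitotic kinase, had log2 changes of -0.88 and -0.92 there. Cdc20, which activates the anaphase-promoting complex, had -0.74 and -0.74. Both also passed as lower with DHEA in all 4 comparisons.

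Of 6 inhibitors tested, EGCG raised 2 and lowered 1 in Th17p Total (all genes 30.1% higher and 14.9% lower), and DHEA raised 4 and lowered 0 in Th17p Div.1 (all genes 18.1% and 19.2%). Of all genes tested at most 18.1% can be higher in all 8 compound comparisons. Cdkn1a, which encodes the inhibitor p21 of cyclin-dependent kinases, rose with both compounds in all 8. Its log2 changes with EGCG were 2.95 and 3.11 in Th17p Total and Div.1 and 3.45 and 3.43 in Th17n Total and Div.1. With DHEA they were 0.86, 1.55, 2.02 and 1.89 in the same order. Cdkn2c, the p18 inhibitor of Cdk4 and Cdk6, rose with EGCG in Th17p Total (1.19) and Div.1 (1.25) and passed in neither Th17n comparison. Cdkn1b, the p27 inhibitor, passed as higher only with DHEA in Th17p Div.1 (0.82) and as lower with EGCG in Th17n Total (-0.40). Gmnn, encoding geminin, which blocks Cdt1, fell with EGCG in Th17p Total (-0.46), Th17p Div.1 (-0.29) and Th17n Total (-0.13). Of the 9 inhibitors listed, Cdkn1c, Cdkn2a and Cdkn2b did not pass the filter.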

How the data were processed

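Poly(A) RNA of 79 libraries of mouse Th17 cultures was sequenced. The deposited values are TPM per gene symbol, made by the authors; Trimmomatic, kallisto and the build mm10 are named in the submitters' processing notes, without versions. No read counts were used here, so depth and counting error are unknown. Library A4 was left out because its label and its plate row differ. The design text gives 5 biological replicates from mice for each condition.

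Symbols with at least 1 TPM in 4 or more of 78 libraries were kept (10672 of 20465). limma 3.58.1 in R 4.3.3 was fitted to log2(TPM + 1) with 16 group means and a mean-variance trend, and p-values were adjusted by Benjamini-Hochberg over all kept genes, with a call under 0.05. Changes of low genes are understated on this scale. The 42 genes and the other lists were chosen with earlier results of these data known. Values by library are given for the called gene of smallest p in each role group and comparison, or of the largest change where none was called. Ccne1, Ccne2 and the genes named from the other lists, beyond Cdkn1a, Cdkn1b, Gmnn, Myc and Rb1, were chosen after their values were seen. The scripts were tested on simulated data. Alternatives were a pseudocount of 0.1, no filter, rescaled TPM, no trend, a replicate block, the groups of a comparison alone, well A4 in its labelled group, no wells of columns 1 and 10, and each library left out.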

Additional observations from a re-analysis of the deposited data

Results flagged for a closer look

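Of 112 sets of 5 or 4 libraries tested, 5 held 1 library that lay far from the rest of its group by Dixon's criterion, and chance gives about 1 in 20. E2f2 had 9.37 TPM in the Th17p DHEA Div.1 library of column 7, where the other 4 had 10.8 to 11.3 TPM. E2f2 had 7.97 TPM in the Th17p methanol Div.1 library of column 9, where the other 4 had 8.86 to 9.18 TPM. Cdc7 had 38.2 TPM in the Th17p methanol Div.1 library of column 6, where the other 4 had 32.6 to 34.2 TPM. E2f2 had 13.9 TPM in the Th17n methanol Total library of column 10, where the other 4 had 11.1 to 11.8 TPM. Ccnd2 had 123 TPM in the Th17n methanol Div.1 library of column 10, where the other 4 had 95.8 to 103 TPM.

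Responses to EGCG that differed by a test of the difference itself (limma, adjusted p under 0.05 over all genes) are given as the first response minus the second. Between Th17p and Th17n (Total), the EGCG response differed by a log2 value of -0.70 for Rfc3, -0.50 for Tk1, -0.40 for Mcm2 and -0.51 for Cdt1. Between Th17p and Th17n (Div.1), the EGCG response differed by a log2 value of -0.69 for Rfc3, -0.45 for Tk1, -0.36 for Mcm3 and -0.30 for Mcm2. Between Div.1 and Total (Th17p), the EGCG response differed by a log2 value of 0.74 for Ccne1, 0.42 for Rrm2, -0.42 for Ccnd2 and 0.27 for Orc6. Between Div.1 and Total (Th17n), the EGCG response differed by a log2 value of -0.29 for Mcm7, -0.33 for Cdt1, 0.34 for Slbp and 0.29 for Orc6.

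Responses to DHEA that differed by a test of the difference itself (limma, adjusted p under 0.05 over all genes) are given as the first response minus the second. Between Th17p and Th17n (Total), the DHEA response differed by a log2 value of -0.45 for Rfc3 and -0.18 for Rfc4. Between Th17p and Th17n (Div.1), the DHEA response differed by a log2 value of -0.36 for Tk1, -0.32 for Pold1, -0.42 for Ccnd3 and -0.25 for Rfc3. Between Div.1 and Total (Th17p), the DHEA response differed by a log2 value of -0.29 for Mcm7, -0.38 for Pold1, 0.36 for Rrm2 and 0.35 for Orc6. Between Div.1 and Total (Th17n), the DHEA response differed by a log2 value of 0.46 for Rrm2, 0.37 for Tk1, 0.29 for Rrm1 and 0.32 for Ccne1.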

How the results depend on the processing

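Of 2306 values of called results under the alternatives other than leaving out 1 library, 2159 kept direction and call, 144 lost the call and 3 changed sign: with rescaled TPM, EGCG in Th17n Div.1 gave -0.0053 for Gins2 and -0.0092 for Pcna, and with well A4 in its labelled group -0.0048 for Tk1. The causes were not tested. Of 4606 values without 1 library, 4298 kept the call and 308 lost it. The DHEA response count of 2 (Th17p minus Th17n, Total) was 1 without the filter, 1 without the trend, 1 with the groups of the comparison only, 4 without the wells of columns 1 and 10, and 1 to 4 without single libraries; it was 1 without Th17p DHEA Total 6 or 8, Th17p methanol Total 6, 7 or 10, Th17n DHEA Total 6, 9 or 10, or Th17n methanol Total 6, 8 or 9. The EGCG response count of 4 (Div.1 minus Total, Th17p) was 7 with the groups only, 7 without columns 1 and 10, and 2 to 7 without single libraries, and that of 12 in Th17n was 6 without columns 1 and 10. With the groups only, DHEA in Th17n Div.1 called 7 of 42 and the DHEA response (Div.1 minus Total, Th17n) 4. Without single libraries these were 8 to 13 and 4 to 11, and the DHEA response (Th17p minus Th17n, Div.1) 4 to 11. Whether equal well column numbers mark paired samples is not given in the sources used here. Same-numbered deviations of a compound and its solvent correlated at -0.00159 to 0.276, and those of Div.1 and Total at 0.0192 to 0.315. Those of Th17p and Th17n correlated at 0.00336 to 0.287, and no pair of groups had all over 0.1. Div.1 libraries matched the Total library of their own number best in 32 of 38 cases. Between Th17p and Th17n the own number matched best in 27 of 38. Own-number best matches of EGCG with DMSO were 5 of 5 in Th17p Total and 4 of 4 in both Div.1 comparisons. In the other 5 compound comparisons they were 2 to 4 of 5. These matches are a hint from the data and not the design, and the main fit did not use them. With the replicate block the DHEA response count (Th17p minus Th17n, Total) became 9, with 5 higher and 4 lower. The EGCG response count (Div.1 minus Total) became 7 in Th17p, with 5 higher and 2 lower. In Th17n it became 17, with 8 higher and 9 lower. Div.1 over Total in solvents gave 13 higher and 8 lower in Th17p and 4 and 10 in Th17n.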

Other observations

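Of 15 regulators of the E2F pathway, EGCG raised 4 and lowered 1 in Th17p Total, and raised 9 and lowered 1 in Th17p Div.1. Of all genes tested 30.1% were higher and 14.9% lower in Th17p Total, and 33.7% and 11.9% in Th17p Div.1. The median log2 changes of the 15 were -0.02 and 0.36, where all genes tested had 0.09 and 0.12. Rb1, which encodes the retinoblastoma protein, rose in both (0.77 and 0.73 on the log2 scale) and with DHEA in Th17p Total (0.39) and Div.1 (0.63). Myc, a growth factor response gene, rose with DHEA in Th17p Total (0.29), Th17n Total (0.32) and Th17n Div.1 (0.21), and fell with EGCG in Th17n Div.1 (-0.22). Cks1b, a subunit that binds cyclin-dependent kinases, fell in all 8 compound comparisons. Of all genes tested at most 6.77% can be lower in all 8, the share lower with EGCG in Th17n Div.1.

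Well A4 was labelled Th17n with DMSO, Div.1. Of 18 of the 42 genes whose Th17p and Th17n DMSO Div.1 libraries did not overlap, its value lay nearer to Th17p for 15 and nearer to Th17n for 3.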
